A study of Homo sapiens with 20 samples.

Results

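The 47 genes described here make up the machinery that copies DNA and the switch that starts it at the G1/S boundary of the cell cycle. They were chosen by name, as origin, helicase, polymerase and cyclin genes. No rule on their measured values was used, but earlier results of these data were known when the list was made. All 47 had a probe set on the array, 95 probe sets in all, and all 47 passed the filter on dim signals, among 14478 genes tested of 19775 with a probe set of their own. Messenger RNA was measured in the established human osteosarcoma line U2OS on 20 oligonucleotide arrays, 4 in each of 5 conditions. The conditions were hypoxia (below 0.1% oxygen), tunicamycin (2.5 ug/ml), which blocks N-linked glycosylation, emetine (100 ug/ml), which blocks translation elongation, UPF1 depletion by a short hairpin (shRent1 in the labels), and control. UPF1 is the helicase of nonsense-mediated mRNA decay. All cells grew in the same serum-containing medium, and hypoxia, tunicamycin and emetine lasted 3 hr before DRB. Each condition then had 1 array each after 0, 1.5, 3 and 4.5 hr of DRB at 100 ug/ml, an inhibitor of elongation by RNA polymerase II, so the signal of a transcript that is degraded falls from there on. No control hairpin is named for the UPF1-depleted cells, nor whether a stress went on during DRB.

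Replication is prepared in G1. The origin recognition complex (ORC1 to ORC6) binds origins, and CDC6 and CDT1 load the MCM2 to MCM7 helicase there, a step that geminin (GMNN) prevents from being repeated by binding CDT1. At the start of S phase the kinase CDC7 with its activator DBF4, and cyclin E (CCNE1, CCNE2) with CDK2, let CDC45 and the GINS complex join the helicase. DNA polymerases, the sliding clamp PCNA and its loader RFC then copy the strands. Many of these genes are targets of E2F transcription factors, which D-type cyclins with CDK4 or CDK6 release from the retinoblastoma protein.

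Promoter sequences were looked up because E2F control is the feature these genes are best known to share. RefSeq promoters (GRCh38.p14, 250 bases before to 50 bases after the gene start) matched 40 of the 47 genes. Of these, 18 (45.0%) held at least 1 of 4 E2F words on either strand, TTTCCCGC, TTTGGCGC, TTTCGCGC or TTTGCCGC, against 908 of 27305 promoters of the genome-wide table (3.33%). The shorter word CCAAT was found in 57.5% of the 40 and in 35.7% of all. The words may overlap each other on opposite strands, and a match is a description of letters, not of binding. The promoters printed on the next lines belong to the genes whose signal after DRB is described most closely below, with the E2F word in capitals. The ORC5 promoter, at chr7:104207964-104208263 on the minus strand, holds none of the words in this window. GINS3 (chr16:58392221-58392520, plus strand) and E2F3 (chr6:20401629-20401928, plus strand) hold TTTCCCGC read from the opposite strand. CDC25A (chr3:48188368-48188667, minus strand) holds TTTGGCGC.
ORC5: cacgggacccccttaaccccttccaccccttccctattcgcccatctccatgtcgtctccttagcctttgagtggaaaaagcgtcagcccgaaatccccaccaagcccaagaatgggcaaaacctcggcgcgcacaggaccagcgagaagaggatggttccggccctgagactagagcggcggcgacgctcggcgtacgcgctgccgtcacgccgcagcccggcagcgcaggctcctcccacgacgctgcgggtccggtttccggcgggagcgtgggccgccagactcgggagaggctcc
GINS3: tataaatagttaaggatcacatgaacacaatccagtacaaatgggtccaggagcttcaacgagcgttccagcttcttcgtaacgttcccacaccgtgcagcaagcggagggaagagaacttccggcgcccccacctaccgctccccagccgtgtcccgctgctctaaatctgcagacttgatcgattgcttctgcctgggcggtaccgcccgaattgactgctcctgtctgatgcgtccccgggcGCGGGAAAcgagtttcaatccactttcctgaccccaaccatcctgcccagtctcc
CDC25A: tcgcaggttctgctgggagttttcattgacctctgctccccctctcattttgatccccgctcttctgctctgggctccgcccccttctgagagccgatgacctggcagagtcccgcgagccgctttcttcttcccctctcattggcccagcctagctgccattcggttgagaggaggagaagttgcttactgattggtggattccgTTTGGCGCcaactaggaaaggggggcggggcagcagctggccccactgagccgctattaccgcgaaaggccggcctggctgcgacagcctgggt
E2F3: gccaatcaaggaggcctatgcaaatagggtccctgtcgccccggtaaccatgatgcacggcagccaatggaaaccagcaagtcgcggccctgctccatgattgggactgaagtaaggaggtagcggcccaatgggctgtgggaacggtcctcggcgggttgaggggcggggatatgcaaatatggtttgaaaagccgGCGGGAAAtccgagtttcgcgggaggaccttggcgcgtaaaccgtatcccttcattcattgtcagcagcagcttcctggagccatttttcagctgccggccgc
Among genes with a promoter sequence, an E2F word stood in 7 of 18 whose signal fell in control cells after DRB and in 9 of 16 without a slope call in any condition.

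UPF1 was checked first. Its brighter probe set read 169.5, 92.4, 94.7 and 89.4 in UPF1-depleted cells over the 4 times of DRB, against 354.5, 352.4, 392.2 and 377.0 in control, so the groups did not overlap and the mean was 30.2% of control. The dimmer probe set read 68.0, 71.1, 85.2 and 58.1 in UPF1-depleted cells, against 113.4, 103.6, 121.0 and 122.1 in control. Its mean was 61.4% of control. Median signals per array ran from 37.3 to 40.4, and arrays correlated at 0.930 to 0.996. Mesenchymal and bone markers VIM, COL1A1, SPARC, FN1, RUNX2 and ALPL were above the filter on dim signals and COL1A2 was below it, while PTPRC, CDH5, ALB, APOA1, KRT19 and CDH1 were below it. Of markers of other cell types, EPCAM (187.8 to 477.9), HBB, PECAM1, CD3E, VWF, GFAP and SYP were above it. The log2 ratio of 3' to 5' signal of ACTB, a measure of RNA and target length, was 2.04 ± 0.13 under hypoxia, 0.54 ± 0.11 with tunicamycin, 2.04 ± 0.19 with emetine, 1.24 ± 0.06 after UPF1 depletion and 0.55 ± 0.10 in control (SD, n = 4 arrays). The same ratio of GAPDH lay between 0.00 and 0.15. The part of this difference in the results below was not tested.

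Values are RMA intensities on a linear scale. Because RMA removes changes shared by most transcripts, a slope is the change in log2 signal per hr of DRB relative to the typical transcript of the array, and a level is the fitted log2 difference from control at the moment of DRB addition. Each condition and time has 1 array, so the error (SE) is the scatter of single arrays about fitted lines, which the number of arrays limits. Separate cultures are not stated, so p-values measure only the scatter between these arrays. The RNA came from whole cultures, in which fewer cells in G1 or S phase and less RNA per cell cannot be told apart. A gene was called at a limma p under 0.05 after Benjamini-Hochberg adjustment over all 14478 genes.

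The first question is which of these transcripts were lost in unstressed cells once transcription was blocked. In control 21 of the 47 genes fell and 2 rose, and 17.5% of all genes tested fell and 31.7% had a slope in either direction. Genes that prepare origins and the kinase that fires them were among those that fell: 4 of 6 origin recognition genes fell, 3 of 3 licensing genes (CDC6, CDT1, GMNN), and both CDC7 and DBF4. Among the subunits of the replicative helicase MCM4 fell, with a slope of -0.063 log2 per hr, and the slopes of MCM2 (-0.053), MCM3 (-0.028), MCM5 (0.004), MCM6 (-0.035) and MCM7 (0.019) were not called. Differences between subunits were not tested. Of 13 alternatives, 7 lost the MCM4 call and 1 turned its direction. Of its partners GINS3, MCM10 and GINS1 fell, and CDC45 and GINS2 were not called. Second probe sets of MCM10 (0.052) and POLD3 (0.064) and the mean over all probe sets of MCM4 (0.018) had slopes of the opposite sign, and second probe sets of ORC4 (-0.124), CCNE2 (-0.139) and E2F3 (-0.076) were not called.

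ORC5, an ATP-binding subunit of the origin recognition complex, had a signal of 902, 531, 232 and 162 in control over the 4 times of DRB, so 18.0% of the 0 hr signal was left. Its slope was -0.575 ± 0.048 log2 per hr (limma adjusted p = 1.63e-06). GINS3, a subunit of the GINS complex, read 354, 254, 96 and 66, with 18.5% left and a slope of -0.58 ± 0.06. Both fell at every step. CDC25A, the phosphatase that activates CDK2, read 652, 350, 178 and 186, with 28.6% left. CDT1 read 478, 453, 257 and 174, and ORC6 1808, 1053, 795 and 660, with 36.5% left in each case. CDC25A had reached its low by 3 hr, whereas CDT1 and ORC6 were still lower at 4.5 hr than at 3 hr. CDC7 (346, 298, 168 and 146), E2F3 (536, 457, 250 and 240) and DBF4 (1180, 1320, 661 and 601) kept 42.1%, 44.8% and 51.0%. The second probe set of E2F3 read 214.8, 183.0, 150.4 and 176.2 in control. POLD3, an accessory subunit of DNA polymerase delta, kept 50.5%, and GMNN 58.3%. POLA1, the catalytic subunit of polymerase alpha, rose relative to the array, from 307 at 0 hr to 519 at 4.5 hr (0.18 ± 0.03), as did CDK6 (0.15 ± 0.04).

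At the other end, 19 of the 47 genes had no slope call in any condition, with fitted slopes of their brightest probe sets between -0.07 and 0.11 log2 per hr. They include MCM2, MCM3, MCM5, MCM6 and MCM7, CDC45, GINS2, the nucleotide-supply genes TYMS, RRM1 and RRM2, the D-type cyclins CCND1 and CCND3, and the kinases CDK2 and CDK4. TYMS, thymidylate synthase, read 12113, 12900, 12433 and 12726 in control with its brightest probe set. A dim TYMS probe set fell from 106.7 at 0 hr to 22.8 at 4.5 hr in control, and another read 6498.5 and 7775.7 at these times. With the mean of all TYMS probe sets the control slope was -0.134. Second probe sets of RRM2 (-0.077) and MCM5 (0.088) turned the direction of the slope in hypoxia. How many of all genes tested lacked a slope call in every condition was not counted. Over all 47 genes the median signal left at 4.5 hr was 87.0% of that at 0 hr in control. A missing call does not show that a transcript was stable, since the slopes are relative to the array.

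**Figure D1:**
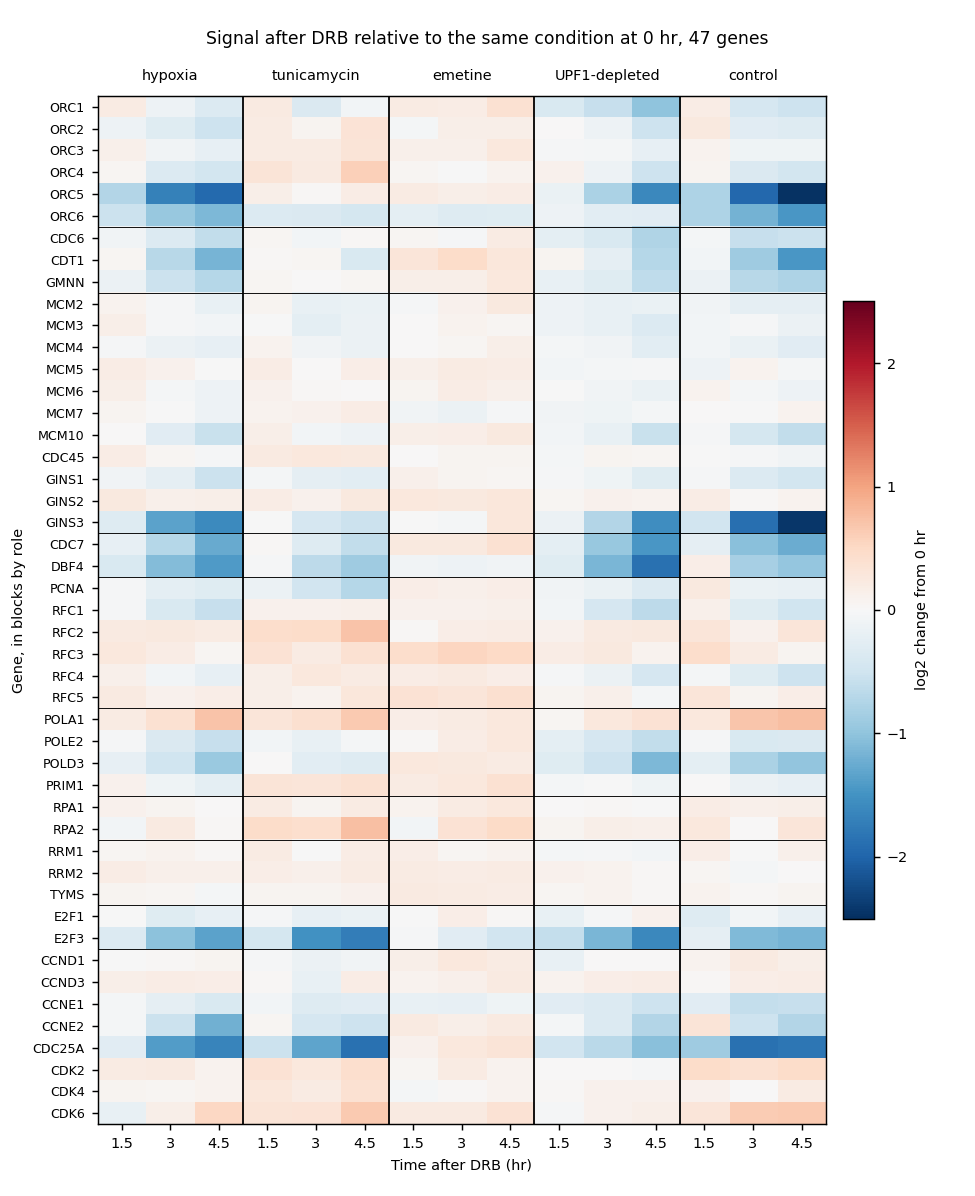
Log2 change of signal from 0 hr of the same condition (colour) at 1.5, 3 and 4.5 hr of DRB (columns) for the 47 genes (rows, in blocks by role), 1 array per cell. ORC5, GINS3, CDC25A, CDC7, DBF4 and E2F3 fall in hypoxia, UPF1-depleted cells and control, CDC25A, CDC7, DBF4 and E2F3 also in tunicamycin, and no gene is under 50% of its 0 hr signal at 4.5 hr in emetine.

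Many of the same genes fell after DRB in hypoxia and in UPF1-depleted cells. In hypoxia 19 genes fell and 2 rose (29.5% of all genes called and 14.2% falling), and in UPF1-depleted cells 19 fell and 1 rose (27.5% called and 16.5% falling). Of the 21 genes that fell in control, 18 also fell in hypoxia, which is 18 of the 19 that fell there, the other being ORC2. The count with UPF1-depleted cells was likewise 18 of 21 and 18 of 19, and 16 genes fell in hypoxia, UPF1-depleted cells and control alike. Across the 47 genes the slopes correlated with those of control at 0.97 in hypoxia and 0.87 in UPF1-depleted cells, against 0.89 and 0.91 over all 14478 genes. These are descriptions across genes that share arrays and normalization. The overlap of falling genes between conditions was not counted over all genes, so it is not shown to be particular to the 47. In tunicamycin the correlation was 0.63 (0.79 over all genes), and in emetine 0.20 (0.38).

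Tunicamycin left 5 falling genes and 4 rising ones (22.4% of all genes called, 11.4% falling). CDC25A, E2F3, DBF4 and CDC7 fell there and in control, 4 of 5 and 4 of 21, and PCNA fell in tunicamycin without a call in control. RFC2, RPA2, POLA1 and CDK6 rose. With arrays centred on ribosomal protein genes, 13 fell and 3 rose in tunicamycin. In emetine 0 of the 47 genes was called by limma (0.394% of all genes). At an unadjusted p under 0.05 there were 9 of the 47, against 1853 of all 14478 genes. Of the 9, E2F3 was the only one with a negative slope (-0.11). The median signal left at 4.5 hr was 86.7% of that at 0 hr under hypoxia, 107% with tunicamycin, 115% with emetine and 82.9% after UPF1 depletion, against 87.0% in control. Fewer than 50% was left for 9 genes under hypoxia, 2 with tunicamycin, 0 with emetine and 7 after UPF1 depletion, against 7 in control. Neither value was computed over all genes. The median fitted slope of the 47 genes was -0.06 under hypoxia, 0.02 with tunicamycin, 0.04 with emetine, -0.06 after UPF1 depletion and -0.05 in control. Over all genes it was 0.02, 0.03, 0.03, 0.02 and 0.03.

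**Figure D2:**
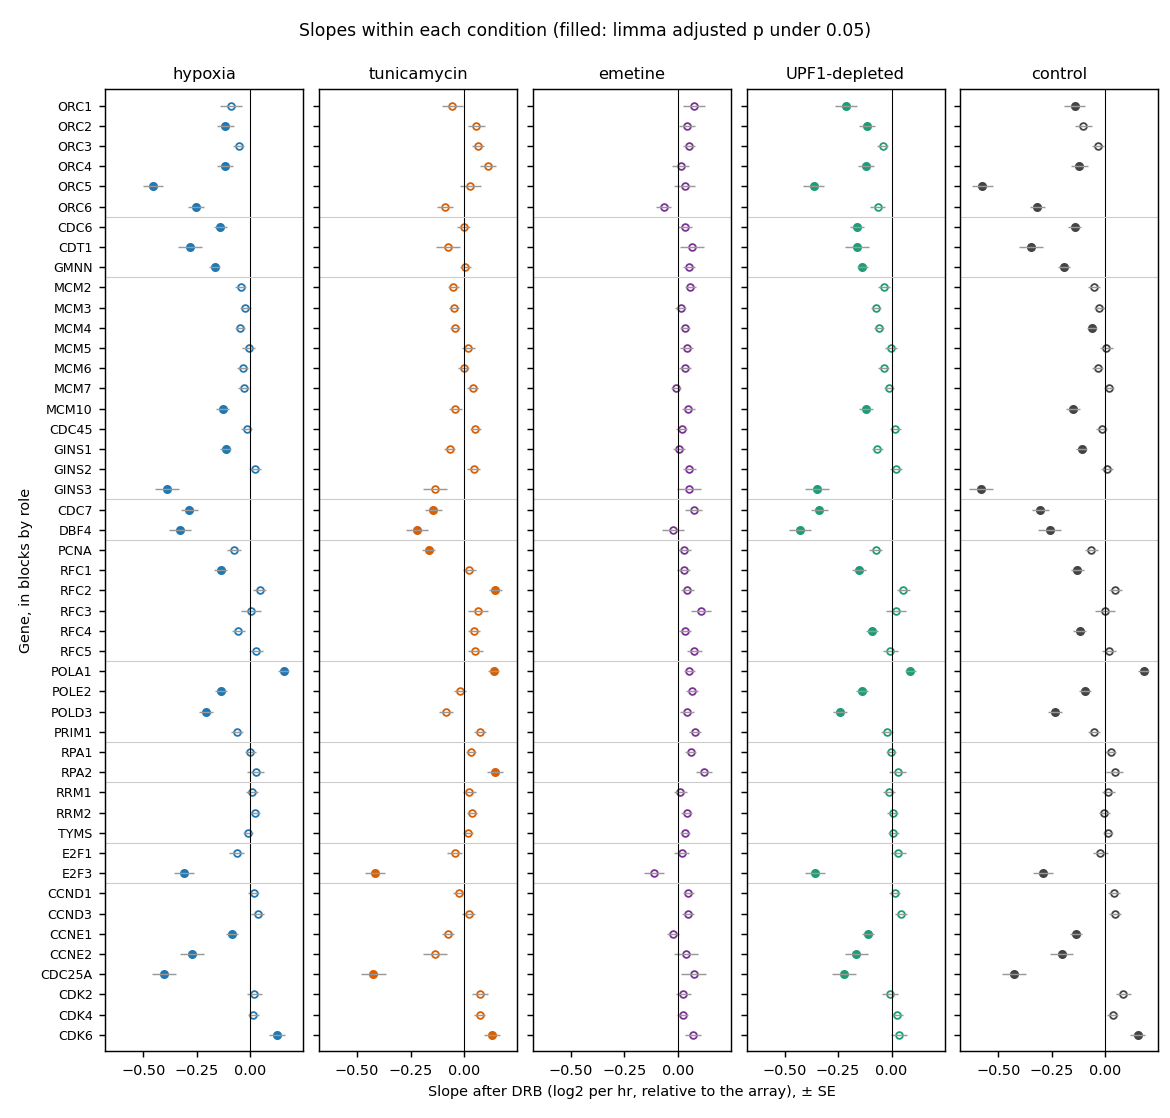
Slopes after DRB in log2 per hr, relative to the array, with SE, for the 47 genes in each condition. Filled points passed limma's adjusted p of 0.05, and open points did not. Filled points left of 0 number 19 under hypoxia, 5 with tunicamycin, 0 with emetine, 19 after UPF1 depletion and 21 in control.

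The slopes were then compared between conditions directly. Emetine had the widest difference: 19 genes had a higher slope than in control and 1, POLA1, a lower one, 42.6% of the 47 against 14.4% of all genes (12.8% higher). The median difference was 0.11 log2 per hr, against 0.00 over all genes. In tunicamycin 9 genes had a higher slope and 0 a lower one, 19.1% against 5.24% of all genes (4.66% higher), with a median of 0.04. Hypoxia gave 0 calls by limma (0.0345% of all genes). At an unadjusted p under 0.05 there was 1 of the 47, GINS3, against 1498 of all 14478 genes. UPF1-depleted cells gave 1 call by limma, ORC6 (0.0414% of all genes). The 4 comparisons share the control arrays.

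ORC5 showed the difference most plainly. Its signal over the 4 times of DRB was 1149, 1266, 1176 and 1306 in tunicamycin and 970, 1124, 1080 and 1100 in emetine, against 902, 531, 232 and 162 in control. Neither series overlapped control. In hypoxia it was 583, 351, 180 and 151, and in UPF1-depleted cells 1139, 1010, 656 and 372, both falling. The slope of ORC5 exceeded that of control by 0.605 ± 0.062 log2 per hr in tunicamycin (limma adjusted p = 0.000358) and 0.61 ± 0.06 in emetine (limma adjusted p = 3.95e-05). A second probe set of ORC5 gave 0.495 ± 0.100 and 0.470 ± 0.100. Another probe set, with a control slope of -0.01 ± 0.03, gave 0.13 ± 0.04 and 0.06 ± 0.04, neither called.

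GINS3 differed in the same direction. It read 374, 370, 278 and 258 in tunicamycin and 472, 470, 459 and 573 in emetine, against 354, 254, 96 and 66 in control. From 1.5 hr on, both treatments lay above control. The slope difference was 0.45 ± 0.06 in tunicamycin (limma adjusted p = 0.00182) and 0.63 ± 0.06 in emetine (limma adjusted p = 3.59e-05), and its second probe set gave 0.46 ± 0.07 and 0.72 ± 0.07. The slope calls of ORC5 and GINS3 in tunicamycin held under all 18 alternatives tried, which include the omission of each control and each tunicamycin array but not that last ORC5 probe set on its own.

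ORC6, a subunit that helps load the helicase, was the only one of the 47 genes whose slope differed from control in 3 conditions. Its signal was 2248, 1769, 1745 and 1657 in tunicamycin, 2769, 2325, 2222 and 2240 in emetine and 2723, 2491, 2271 and 2243 in UPF1-depleted cells, against 1808, 1053, 795 and 660 in control. All emetine and UPF1-depleted values exceeded all control values. The slope differences were 0.23 ± 0.04, 0.25 ± 0.04 and 0.25 ± 0.04, with limma adjusted p of 0.00254, 0.000301 and 0.0243. The call in UPF1-depleted cells was lost in 8 of 16 alternatives, among them the omission of the 0, 3 or 4.5 hr array of either condition. ORC6 is read by 1 probe set of a kind that may cross-hybridize.

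In the licensing group CDT1, which brings the helicase to origins, read 578, 589, 599 and 446 in tunicamycin and 568, 698, 782 and 688 in emetine, against 478, 453, 257 and 174 in control. Its slope difference was 0.27 ± 0.05 in tunicamycin and 0.41 ± 0.05 in emetine. GMNN, the inhibitor of CDT1, read 1906, 1971, 1917 and 1972 in tunicamycin and 2128, 2364, 2356 and 2561 in emetine, against 1958, 1762, 1215 and 1141 in control. The loader and its inhibitor thus differed in the same direction, with GMNN at 0.20 ± 0.04 in tunicamycin and 0.245 ± 0.036 in emetine. CDC6, the ATPase that acts with CDT1, was called in emetine (0.18 ± 0.04) and had a difference of 0.14 ± 0.04 in tunicamycin, not called (limma adjusted p = 0.0782). Its second probe set gave 0.282 ± 0.050 in tunicamycin, and 5 of 18 alternatives, this one included, called it. A second probe set of CDT1 gave 0.19 ± 0.05 in tunicamycin, not called, and 0.175 ± 0.051 in emetine.

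Among the origin recognition genes ORC1 was called in emetine (0.22 ± 0.06), and ORC4 in tunicamycin (0.23 ± 0.04, with 0.182 and no call for a second probe set) but not in emetine (0.135 ± 0.042, limma adjusted p = 0.0525). Among the clamp loader genes RFC1 and RFC4 were called in tunicamycin (0.16 ± 0.03 and 0.17 ± 0.03) and in emetine (0.16 ± 0.03 and 0.155 ± 0.031). The polymerase and primase genes POLD3 (0.28 ± 0.04), POLE2 (0.16 ± 0.04) and PRIM1 (0.13 ± 0.03) had higher slopes in emetine, as did the helicase factors MCM10 (0.20 ± 0.03) and GINS1 (0.12 ± 0.03). Second probe sets of POLD3 (-0.023) and MCM10 (0.012) were not called in emetine. POLA1 went the other way at -0.125 ± 0.037. It read 429, 481, 497 and 514 in emetine, against 307, 368, 498 and 519 in control, so both series ended at nearly the same signal.

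A few genes separated tunicamycin from emetine. Between these treatments 4 of the 47 genes had a different slope, 8.51% against 6.40% of all genes, a share near that of the array. All 4 were lower in tunicamycin: CDC25A by -0.499 ± 0.075 log2 per hr (limma adjusted p = 0.00144), E2F3 by -0.305 ± 0.049, CDC7 by -0.22 ± 0.04 and PCNA by -0.195 ± 0.037. Most genes called on the whole array went this way too, 860 lower in tunicamycin and 67 higher. CDC25A read 595, 408, 239 and 163 in tunicamycin, against 717, 772, 861 and 893 in emetine, and the series did not overlap. E2F3, an activating E2F, read 580, 427, 204 and 175 in tunicamycin, against 803, 786, 664 and 578 in emetine. PCNA read 4957, 4499, 3577 and 3025 in tunicamycin, against 5970, 6734, 6533 and 6693 in emetine. Against control, the slopes of CDC25A (0.001 ± 0.075) and E2F3 (-0.13 ± 0.05) in tunicamycin were not called, and those in emetine were 0.50 ± 0.075 and 0.18 ± 0.05. A second probe set of E2F3 gave -0.21 ± 0.05 in tunicamycin, which was called, and -0.03 ± 0.05 in emetine, so the emetine call rests on the brighter one.

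**Figure D3:**
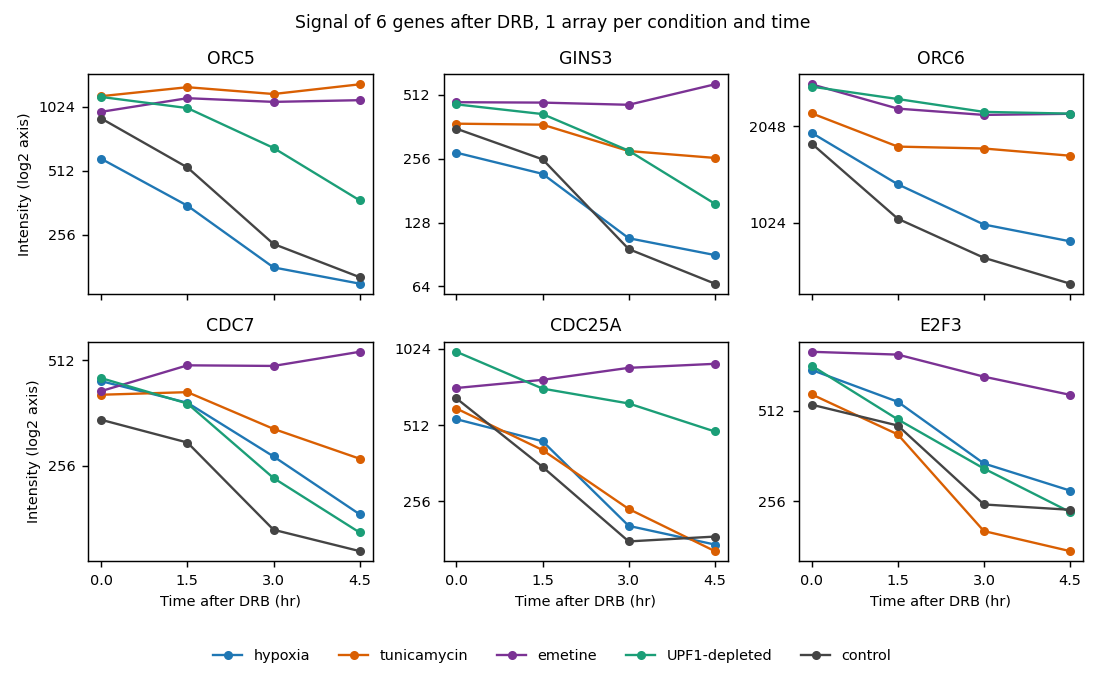
Signal (intensity, log2 axis) of 6 genes against time after DRB, 1 array per point, with a line per condition. ORC5 stays between 970 and 1306 in tunicamycin and emetine and falls elsewhere, while CDC25A and E2F3 fall in tunicamycin as in control and CDC25A ends at 893 in emetine.

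Hypoxia and UPF1-depleted cells were compared with the other treatments and with each other. Between the slopes of hypoxia and UPF1-depleted cells a difference was called for 0 of the 47 genes by limma (0.104% of all genes). At an unadjusted p under 0.05 there were 3 of the 47, against 1768 of all 14478 genes. Hypoxia differed from emetine for 17 genes (13.2% of all genes) and from tunicamycin for 8 (5.91%), with a lower slope in hypoxia each time. Of all genes called, 1467 were lower and 445 higher in hypoxia than in emetine. Against tunicamycin 488 were lower and 367 higher. Emetine had a higher slope than UPF1-depleted cells for 16 genes (13.7% of all genes in either direction). Tunicamycin did for 5 (3.39% in either direction), ORC4, ORC5, CDC7, RFC1 and RFC4. CDC7 read 408, 415, 326 and 268 in tunicamycin, 418, 495, 493 and 541 in emetine and 455, 385, 236 and 165 in UPF1-depleted cells. Its slope difference between tunicamycin and UPF1-depleted cells was 0.195 ± 0.039, and that between emetine and UPF1-depleted cells 0.41 ± 0.04.

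The calls on slopes depend on the first and last arrays. Without 1 array, the count of genes called against control ran from 2 to 9 in tunicamycin, with 3 without control at 0 hr, 2 without tunicamycin at 0 hr and 3 without tunicamycin at 4.5 hr. In emetine it ran from 10 to 20, with 12 without control at 0 or at 4.5 hr, 13 without emetine at 0 hr and 10 without emetine at 4.5 hr. Calls of CDC25A, CDC7, CDT1, GINS3, GMNN, ORC5 and ORC6 in emetine held in all of these. Without its own 4.5 hr array the count within a condition was 8 in hypoxia, 2 in tunicamycin and 5 in UPF1-depleted cells, against 14 in control, and without its 0 hr array 2 in tunicamycin and 9 in UPF1-depleted cells. Between treatments the 50 slope calls became 33 without emetine at 4.5 hr and 32 without UPF1-depleted cells at 4.5 hr.

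The second question is whether the stresses changed the levels before transcription was blocked. Emetine did so for 21 of the 47 genes, 44.7% against 38.7% of all genes, so the share was near that of the whole array. Of these 8 were higher (18.9% of all genes were) and 13 lower (19.8%). Of 6 origin recognition genes 3 were higher and of 11 helicase genes 5 were lower, while polymerase genes (2 higher, 1 lower) and the 8 G1/S regulators (1 higher, 4 lower) went both ways. DBF4, the activator of CDC7, was raised most, with 2605, 2451, 2387 and 2444 in emetine against 1180, 1320, 661 and 601 in control (0.94 ± 0.15, limma adjusted p = 0.000454). ORC6 (0.68 ± 0.10), ORC2 (0.66 ± 0.15), E2F3 (0.61 ± 0.14), ORC4 (0.59 ± 0.12), POLD3 (0.54 ± 0.12), POLA1 (0.49 ± 0.10) and CCNE1 (0.34 ± 0.11) were the others. DBF4, ORC6, ORC2, E2F3, ORC4, POLD3 and CCNE1 lay above all their control values in all 4 emetine arrays, and POLA1 overlapped control. How many of all genes did so was not counted. Second probe sets of ORC2 (-0.167) and POLD3 (-0.272) turned the direction.

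Lower in emetine were RFC3, a clamp loader subunit (630, 855, 920 and 889 in emetine against 994, 1341, 1142 and 1046 in control, -0.70 ± 0.11) and PRIM1, the catalytic subunit of primase (1618, 1864, 1937 and 2114 against 2584, 2599, 2337 and 2247, -0.67 ± 0.09). Neither overlapped control. RRM2, the inducible subunit of ribonucleotide reductase, read 5565, 6396, 6308 and 6456 in emetine against 8478, 8826, 8245 and 8518 in control (-0.57 ± 0.08). RPA2 (-0.55 ± 0.16), CDK6 (-0.53 ± 0.15), CCND3 (-0.49 ± 0.12), CDC45 (-0.44 ± 0.10), CCND1 (-0.41 ± 0.11), MCM4 (-0.40 ± 0.09) and MCM10 (-0.36 ± 0.10) were further lower genes. GINS1, GINS2 and CDK4 were lower by a log2 difference of -0.30 to -0.28. The count fell to 5 without control at 0 hr and 10 without emetine at 0 hr. Second probe sets of MCM10 (0.062), MCM4 (-0.078), GINS2 (-0.186) and CDK6 (-0.471) were not called. The calls of ORC6, RFC3, PRIM1 and RRM2 held under every alternative tried, but ORC6 and PRIM1 have no other probe set. Another RFC3 probe set, not tried on its own, had a mean difference from control of 0.12 in emetine over all times, beside -0.46 for the brightest.

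Hypoxia changed the level of 5 genes, 10.6% against 7.65% of all genes. CCNE2, a cyclin E, was higher (627, 607, 434 and 272 in hypoxia against 366, 455, 254 and 219 in control, 0.72 ± 0.15, limma adjusted p = 0.0124), as was CDC7 (446, 387, 272 and 186 against 346, 298, 168 and 146, 0.41 ± 0.11). Both genes overlapped control, and both fell after DRB in either condition. ORC5 was lower (-0.70 ± 0.17), as were CCNE1 and RRM2, and the values of ORC5 and CCNE1 overlapped control. CCNE1, the other cyclin E, read 1813, 1744, 1546 and 1399 in hypoxia against 2495, 2056, 1656 and 1666 in control (-0.38 ± 0.11). RRM2 read 6373, 7248, 6967 and 6967 in hypoxia against 8478, 8826, 8245 and 8518 in control (-0.37 ± 0.08), with no overlap. The 2 cyclins E therefore had estimates of opposite sign, but a second probe set of CCNE2 gave -0.91 ± 0.29 and that of RRM2 0.455 ± 0.097, the reverse of the brighter ones. No level call was left without the 0 hr array of either hypoxia or control, 2 or 3 without another hypoxia array, and quantile normalization gave 4 higher and 2 lower.

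UPF1 depletion also changed 5 levels, 10.6% against 13.7% of all genes, a share below that of the array. RPA2, a subunit of the single-strand binding complex RPA, was the highest, with 2262, 2361, 2493 and 2460 in UPF1-depleted cells against 1162, 1400, 1177 and 1436 in control (0.93 ± 0.16, limma adjusted p = 0.00328). Its groups did not overlap, and the difference was 0.75 to 1.08 at the 4 times. CDC25A read 996, 713, 623 and 483 in UPF1-depleted cells against 652, 350, 178 and 186 in control (0.75 ± 0.21). ORC6 (0.71 ± 0.10) and CDC7 (0.44 ± 0.11) were higher too, and PRIM1 was lower (-0.39 ± 0.09). With arrays centred on ribosomal protein genes 3 were higher and 3 lower, with quantile normalization 2 and 2, and 1 call was left without the 0 hr array of either condition (3 without the 1.5 hr array of UPF1-depleted cells). The ORC6 call held throughout, though ORC6 has no other probe set. RPA2, CDC7 and PRIM1 likewise have no other probe set.

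Tunicamycin changed 1 level, that of CDC6, 2.13% against 2.89% of all genes. CDC6 read 1490, 1532, 1424 and 1518 in tunicamycin against 1006, 977, 678 and 690 in control (0.54 ± 0.12, limma adjusted p = 0.0318), with no overlap. The call was lost in 5 of 19 alternatives, each the omission of 1 array. With no adjustment, 7 of the 47 genes had a limma p under 0.05, against 2490 of all 14478 genes. The mean difference over the 4 times, a measure that takes in the slope as well, gave 14 genes in tunicamycin and 33 in emetine. Its calls were not counted over all genes, so neither count is shown to differ from the share of the whole array.

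**Figure D4:**
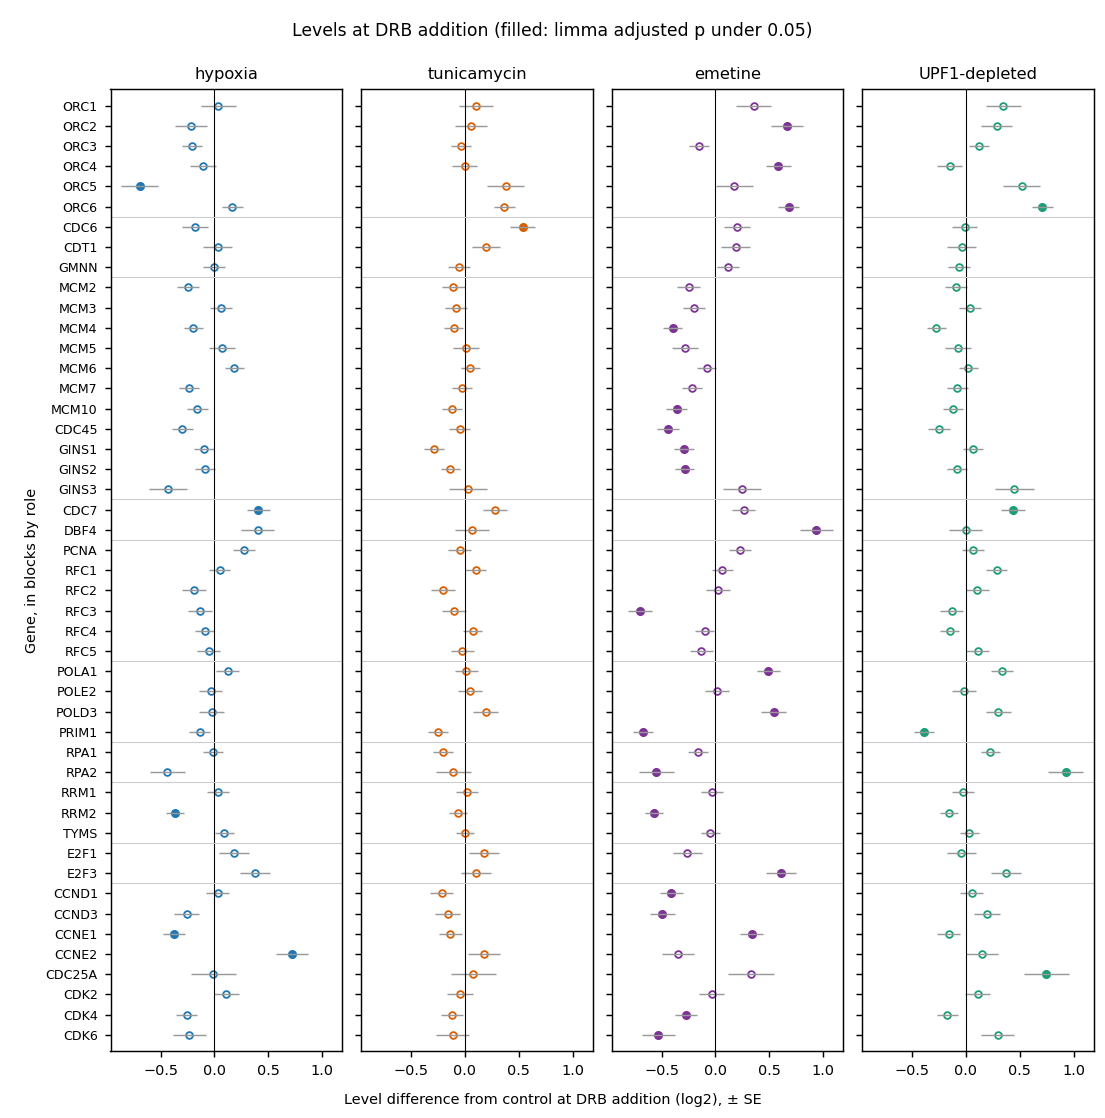
Fitted log2 difference of the level from control at DRB addition, with SE, for the 47 genes in 4 conditions. Filled points passed limma's adjusted p of 0.05 (5 under hypoxia, 1 with tunicamycin, 21 with emetine, 5 after UPF1 depletion).

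Between treatments, levels differed for 17 genes between hypoxia and emetine (33.0% of all genes), 4 between hypoxia and tunicamycin (13.3%) and 10 between hypoxia and UPF1-depleted cells (24.3%). They differed for 17 between tunicamycin and emetine (31.8%), 6 between tunicamycin and UPF1-depleted cells (16.6%) and 14 between emetine and UPF1-depleted cells (37.5%). RPA2 had the widest difference, at -1.48 ± 0.16 in emetine relative to UPF1-depleted cells (limma adjusted p = 2.72e-05) and -1.365 ± 0.163 in hypoxia relative to UPF1-depleted cells. ORC5 was lower in hypoxia than in tunicamycin (-1.07 ± 0.17), emetine (-0.87 ± 0.17) and UPF1-depleted cells (-1.21 ± 0.17). CCNE2 was higher in hypoxia than in emetine by 1.07 ± 0.15. The 68 level calls became 45, 30 and 44 without the 0 hr array of tunicamycin, emetine and UPF1-depleted cells.

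Several probe sets read 30 of the genes, and they did not always move together. Of 44 probe sets other than the brightest that passed the filter, 6 lay more than 0.5 log2 units below the brightest one in the mean difference of hypoxia from control, 2 for tunicamycin, 12 for emetine and 5 for UPF1 depletion. More than 0.5 above it lay 1, 0, 2 and 2. For RRM1, the large subunit of ribonucleotide reductase, the brighter probe set differed from control by 0.02, 0.05, -0.04 and -0.09 under hypoxia, with tunicamycin, with emetine and after UPF1 depletion. The other gave -0.93, -0.15, -0.97 and -0.50. CDK2 had 1 such probe set at -1.505 under hypoxia, -0.39 with tunicamycin, -1.34 with emetine and -1.09 after UPF1 depletion, beside -0.04, -0.07, -0.17 and -0.10 for the brightest. RFC5 had 1 probe set at -0.66, 0.02, -0.50 and -0.19 and another at 0.10, 0.05, -0.145 and 0.46, beside -0.035, 0.06, 0.005 and 0.06 for the brightest. RFC3 gave -0.85, -0.13, -1.08 and -0.49 with 1 probe set, and -0.26, 0.26, 0.12 and 0.24 with another, beside -0.12, 0.05, -0.46 and -0.08 for the brightest. The ACTB ratio was likewise high in hypoxia and emetine, intermediate in UPF1-depleted cells and close to control in tunicamycin. Its part in these values was not tested.

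**Figure D5:**
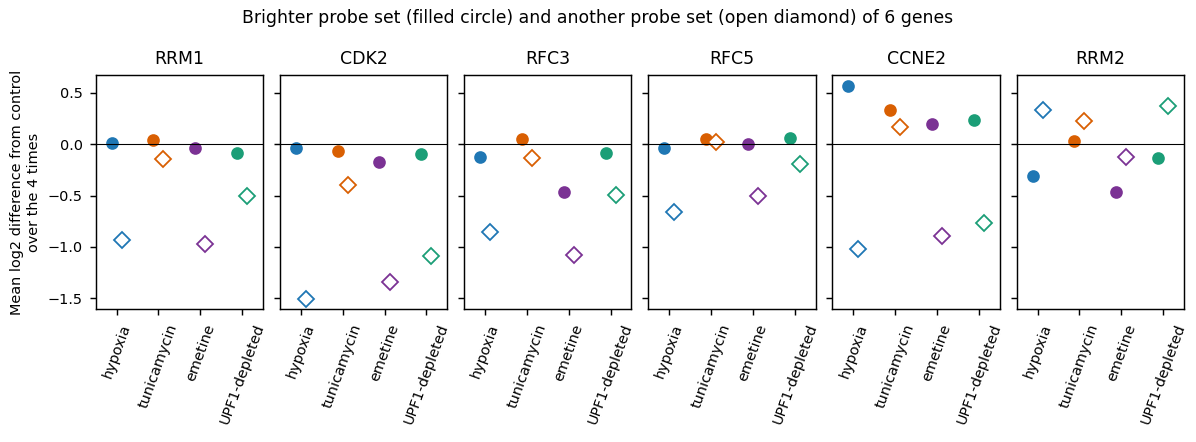
Mean log2 difference from control over the 4 times for the brightest probe set (filled circle) and another probe set (open diamond) of 6 genes, by condition. The diamonds of RRM1, CDK2, RFC3, RFC5 and CCNE2 lie below the circles in hypoxia and emetine, and those of RRM2 lie above.

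The wider set of S-phase genes, 70 tested of 76 listed, gives the surroundings of the 47. After DRB 19 of the 70 fell under hypoxia, 11 with tunicamycin and 23 after UPF1 depletion, against 21 in control. Of all genes 14.2%, 11.4%, 16.5% and 17.5% fell. In the same order 10, 9 and 8 of the 70 rose, against 11 in control. Of all 14478 genes 2222, 1592 and 1589 rose, against 2063 in control. CDKN1A, the CDK inhibitor p21, fell at -0.375 ± 0.037 in hypoxia and -0.36 ± 0.04 in control, and USP1, a deubiquitinase of PCNA, at -0.24 ± 0.03 in hypoxia, -0.27 ± 0.03 in UPF1-depleted cells and -0.28 ± 0.03 in control. Slopes were higher than in control for 4 of the 70 in tunicamycin (4.66% of all genes) and 20 in emetine (12.8% of all genes), where 2 were lower. TIPIN, of the replication fork protection complex, differed by 0.30 ± 0.04 in tunicamycin and 0.28 ± 0.04 in emetine. DTL, which directs destruction of CDT1, differed by 0.24 ± 0.04 in tunicamycin and 0.35 ± 0.04 in emetine. ASF1A, a histone chaperone, and USP1 were the others in tunicamycin, at 0.44 ± 0.08 and 0.25 ± 0.03.

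Levels of the wider set were higher for 21 and lower for 12 of the 70 in emetine (18.9% and 19.8% of all genes), among them E2F2, an activating E2F (1.297 ± 0.149), CDKN1A (1.09 ± 0.15) and CDCA7 (-0.85 ± 0.12). In UPF1-depleted cells 5 were higher and 1 lower (13.7% of all genes in either direction), with RBL1, a relative of the retinoblastoma protein, at 0.745 ± 0.130 and CKS1B, a CDK-binding protein, at 0.52 ± 0.09. Hypoxia raised 4 (7.65% of all genes called), CCNA2 (0.425 ± 0.106), E2F7 (0.561 ± 0.145), MCM9 (0.745 ± 0.202) and PRIM2 (0.455 ± 0.128), and tunicamycin raised 2 (2.89% of all genes called), E2F7 (0.787 ± 0.145), a repressive E2F, and DTL (0.46 ± 0.10).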

How the data were processed

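RMA intensities on a linear scale, 54675 probe sets by 20 arrays, are what the authors deposited; RMA is named in the submitters' processing notes with no version. Total RNA was amplified and labelled for 3' expression arrays, per the labels' protocols. RMA removes changes shared by most transcripts, so absolute decay rates are not measured. Groups came from the treatment labels.

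Values were taken to log2. A gene was read by its brightest probe set with 1 symbol (41097 probe sets; 1801 had several symbols and 11777 none), and tested where the mean exceeded the 40th percentile (log2 4.70, an intensity of 26.0). limma 3.58.1 in R 4.3.3 (lmFit, eBayes) was fitted to all arrays with a factor for time, a term for condition and a line in time for each condition, 12 coefficients with 8 residual degrees of freedom. Slopes within conditions came from 5 separate lines, 10 coefficients with 10. The fits were also run on data simulated with independent normal errors about the fitted time course. Such data hold no differences between cultures or probe sets, and the outcome is not given here. P-values were adjusted by Benjamini-Hochberg over all 14478 genes, at 0.05. The 47 genes and the wider list were chosen with earlier results of these data known. Any of the 47 genes could be named, and from the wider list the 3 with the largest moderated statistics per comparison; PRIM2, ASF1A and the probe sets singled out were named after their values were seen. Alternatives varied the scaling, filter, probe set, offset, variance model, time term and single arrays.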

Additional observations from a re-analysis of the deposited data

Results flagged for a closer look

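The treatments differed from each other, by contrasts of the same limma fit adjusted over all genes, in the level of 4 of the 47 genes between hypoxia and tunicamycin, 17 between hypoxia and emetine, 10 between hypoxia and UPF1-depleted cells, 17 between tunicamycin and emetine, 6 between tunicamycin and UPF1-depleted cells and 14 between emetine and UPF1-depleted cells. Over all genes the shares were 13.3%, 33.0%, 24.3%, 31.8%, 16.6% and 37.5%, so the level counts are near or below what the whole array gave. Slopes differed for 8 genes between hypoxia and tunicamycin, 17 between hypoxia and emetine, 4 between tunicamycin and emetine, 5 between tunicamycin and UPF1-depleted cells and 16 between emetine and UPF1-depleted cells, against 5.91%, 13.2%, 6.40%, 3.39% and 13.7% of all genes.

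Among the 32 level calls against control, the 4 differences of single times were searched for 1 that stood far from the rest (Dixon's test). That held for CDC7 in hypoxia, whose highest difference from control, 0.69 at 3 hr, stood apart from 0.35 to 0.38 at the other times. Chance alone marks about 1 in 20 such groups.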

How the results depend on the processing

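No paired analysis was possible because the numbers of arrays within a condition stand for DRB times, which the model already holds as a factor. Of 3783 values of single genes under an alternative, 3230 kept direction and side of the threshold, 325 lost the call, 196 gained one and 32 turned direction, 29 of these with another choice of probe set; the cause was not tested. Probe sets ending in _s_at or _x_at left out, 35 of the 47 genes were tested, and 28 had a second brightest probe set, an alternative chosen after seeing the data. Signals near background and 1 array per condition and time limit the rest.

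Counts changed by over 1.5 times as follows. Levels under hypoxia (5) became 3 with no filter, 3 without _s_at and _x_at probe sets, 8 with a variance trend and robust fit, 1 with linear time and 10 as the mean difference over the 4 times. Levels with tunicamycin (1) became 2 with the 60th percentile filter, 2 with trend and robust and 14 as mean difference, and levels with emetine (21) became 33 as mean difference. Levels after UPF1 depletion (5) became 8 with the 60th percentile filter, 8 with trend and robust, 8 with 16 added before the log, 3 with linear time and 10 as mean difference. Calls as mean difference were not counted over all genes. Slopes against control with tunicamycin (9) became 5 without _s_at and _x_at and 14 with trend and robust, and after UPF1 depletion (1) 0 with quantile normalization, without _s_at and _x_at, and with linear time. Slope calls between treatments (50) became 78 with trend and robust. Slopes within control (23) became 15 without _s_at and _x_at, and within tunicamycin (9) 14 with quantile normalization, 16 with ribosomal centring and 15 with trend and robust.

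Without 1 array, level calls against control ranged from 0 to 5 under hypoxia, 0 to 1 with tunicamycin, 5 to 21 with emetine and 1 to 6 after UPF1 depletion, and from 30 to 68 between treatments. Slope calls ranged from 2 to 9 with tunicamycin, 10 to 20 with emetine and 0 to 1 after UPF1 depletion, stayed at 0 under hypoxia, and ranged from 32 to 56 between treatments. Slopes within a condition ranged from 8 to 18 (hypoxia), 2 to 12 (tunicamycin), 5 to 19 (UPF1-depleted) and 14 to 22 (control).

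Directions turned as follows. With the mean of all probe sets, the hypoxia level was -0.397 for RRM1, 0.043 for RRM2 and -0.093 for CCNE2, and the control slope 0.018 for MCM4 and -0.134 for TYMS. With the second brightest probe set, the hypoxia level was -0.823 for RRM1, 0.455 for RRM2 (also without _s_at and _x_at), -0.646 for CCND1, -0.908 for CCNE2 and -1.345 for CDK2. The emetine level was -0.167 for ORC2, 0.062 for MCM10 and -0.272 for POLD3, and the UPF1-depleted level 0.330 for RRM2 (also without _s_at and _x_at) and -0.818 for CDK2. Emetine slopes against control were -0.023 for POLD3 and -0.027 for E2F3. Slopes within control were 0.052 for MCM10 and 0.064 for POLD3, within hypoxia 0.088 for MCM5 and -0.077 for RRM2 (both also without _s_at and _x_at) and 0.019 for POLD3, and within UPF1-depleted cells 0.094 for MCM5 (also without _s_at and _x_at) and 0.048 for POLD3. As mean difference over the 4 times, ORC4 was 0.519 with tunicamycin, and MCM10 0.091 and RFC4 0.250 with emetine.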
